A study of Mus musculus with 16 samples.

Results

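A set of 10 pancreatic acinar and islet genes was followed through total RNA sequencing of mouse small intestine. They were taken from a list of symbols, and all 10 were found among the 55359 genes of the count table. Of these, 6 are made by the acinar cells of the exocrine pancreas (Cpa1, Cela2a, Ctrb1, Pnlip, Clps and Pla2g1b) and 4 by the endocrine cells of its islets (Ins1, Ins2, Iapp and Ppy). The list was not built on a measured difference in these libraries, but it was chosen with earlier results of these data known.

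The tissue came from 8 adult male C57BL/6N mice on standard chow, collected 18 weeks after tamoxifen, with 4 animals of each genotype. The mutants (animals NFVCT27, NFVCT38, NFVCT153 and NFVCT190) were Neurog3f/f; Villin-CreERT2: both alleles of Neurog3 were floxed, and a tamoxifen-activated Cre recombinase was driven by a Villin promoter, which is active in the intestinal epithelium. The controls (NF17, NF29, NF32 and NF152) carried the same floxed alleles without the recombinase, so any effect of the transgene cannot be told apart from that of Neurog3 loss. Tamoxifen timing is labelled jointly for the genotypes, and whether the animals without recombinase were dosed is not given in the sources used here. Each animal gave a duodenal and an ileal library, 16 in all, and how the pieces were dissected is not given in the sources used here.

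Neurog3 is the transcription factor that starts endocrine cell formation, in the intestinal epithelium and, during development, in the pancreas. The pancreas lies along the duodenum. Its acinar cells fill zymogen granules with digestive enzymes that reach the duodenal lumen through the ducts, whereas its islets release insulin, amylin and pancreatic polypeptide into the blood. Acinar cells devote most of their messenger RNA to a few secreted enzymes, and the enzyme genes share the transcription factor PTF1, which binds a pair of short motifs, CANNTG and TTTCCC.

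Total counts ran from 8213889 to 35076714 per library. Levels are given as counts-per-million (CPM) after scaling with TMM factors. Neurog3 itself was at 0 counts in each of the 8 mutant libraries, against 0.725 to 2.41 CPM in control libraries. All 7 enterocyte markers examined were detected in every group. By genotype 0 passed in the duodenum (edgeR, 1 at an unadjusted p under 0.05), where 0.394% of all genes tested did. In the ileum, where 3.28% of all genes tested passed, 1 marker did. That was Sis, sucrase-isomaltase, with 19076 ± 2064 CPM in the mutant ileum and 4960 ± 966 CPM in the control ileum (SD, n = 4 each; log2 fold change 1.92, edgeR adjusted p = 1.2e-05), also called in the interaction (adjusted p = 0.0262). No label names a sequencing batch or date.

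Upstream sequences are shown for 3 acinar enzymes and 1 islet hormone as a description. Whether they bear on the levels in these animals was not tested. Of the 10 genes, 8 had an entry in the RefSeq promoter table (build GRCm38.p6; 250 bases before to 50 after the annotated start, in the direction of transcription). Clps and Ins2 had none. Capitals mark CANNTG, which reads the same on both strands, and TTTCCC or its reverse complement GGGAAA; the positions below count from the start. Cpa1 lies at chr6:30638968-30639267 (plus strand), Cela2a at chr4:141825956-141826255 (minus strand), Ctrb1 at chr8:111690961-111691260 (minus strand) and Ins1 at chr19:52264047-52264346 (plus strand).
Cpa1: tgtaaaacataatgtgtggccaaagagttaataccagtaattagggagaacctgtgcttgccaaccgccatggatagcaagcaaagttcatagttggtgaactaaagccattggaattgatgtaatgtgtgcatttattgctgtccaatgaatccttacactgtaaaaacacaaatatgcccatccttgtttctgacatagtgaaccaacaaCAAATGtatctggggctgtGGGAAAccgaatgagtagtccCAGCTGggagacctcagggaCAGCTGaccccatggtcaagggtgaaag
Cela2a: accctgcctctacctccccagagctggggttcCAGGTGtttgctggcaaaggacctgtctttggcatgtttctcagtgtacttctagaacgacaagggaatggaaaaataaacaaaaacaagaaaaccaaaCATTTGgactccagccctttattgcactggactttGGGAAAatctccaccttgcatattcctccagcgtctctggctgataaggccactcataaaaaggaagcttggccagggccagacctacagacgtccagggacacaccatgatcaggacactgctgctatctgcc
Ctrb1: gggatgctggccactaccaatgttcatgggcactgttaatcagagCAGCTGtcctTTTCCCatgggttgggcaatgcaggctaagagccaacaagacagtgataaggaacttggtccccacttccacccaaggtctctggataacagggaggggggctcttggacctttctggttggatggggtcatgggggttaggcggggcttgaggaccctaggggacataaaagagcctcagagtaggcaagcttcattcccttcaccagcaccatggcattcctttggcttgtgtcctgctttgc
Ins1: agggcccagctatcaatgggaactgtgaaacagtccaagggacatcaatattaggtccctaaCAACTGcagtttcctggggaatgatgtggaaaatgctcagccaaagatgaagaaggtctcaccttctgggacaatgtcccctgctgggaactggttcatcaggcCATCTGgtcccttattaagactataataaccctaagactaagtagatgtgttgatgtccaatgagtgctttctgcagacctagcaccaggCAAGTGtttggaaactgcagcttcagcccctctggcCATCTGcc

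Both motifs were present in the promoters of Cpa1, Cela2a and Ctrb1, which makes 3 of the 5 acinar genes with an entry. The TTTCCC match started at -19 in Cpa1, -84 in Cela2a and -195 in Ctrb1. In Ctrb1 a CANNTG match at -205 stood just before it. None of the 3 islet promoters (Ins1, Iapp and Ppy) held TTTCCC, while 2 of them held CANNTG. Among all 32851 promoters in the table, 72.3% held CANNTG, 25.2% held TTTCCC and 18.0% held both, so a match is a description of the letters and not a binding site.

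Acinar RNA was abundant in every duodenal library and differed widely between animals. Together the 6 acinar genes took 5.66, 0.890, 1.05 and 9.28% of all counts in the duodenum of mutants NFVCT27, NFVCT38, NFVCT153 and NFVCT190. In the duodenum of controls NF17, NF29, NF32 and NF152 they took 7.51, 3.89, 4.69 and 3.27%. The 2 lowest libraries and the highest one were all mutant, and the control values lay between them. The mean was 4.22 ± 4.03% in mutants and 4.84 ± 1.87% in controls (SD, n = 4 each). The mutant mean was 2.53% without NFVCT190, and it would lie above 4.22% without NFVCT38 or without NFVCT153. Differing amounts of acinar tissue in a piece and differing RNA per acinar cell cannot be told apart in tissue of this kind.

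Islet RNA was far scarcer and ranged further. The 4 islet genes together reached 21.5, 43.5, 0.20 and 76.2 parts-per-million of library counts in the mutant duodenum (NFVCT27, NFVCT38, NFVCT153 and NFVCT190), against 21.0, 1.95, 27.6 and 5.51 in the control duodenum (NF17, NF29, NF32 and NF152). The mutant duodenal libraries held both the highest and the lowest value. The 2 groups of genes did not rank the animals alike: NFVCT38 was the lowest of the 8 duodenal libraries in acinar RNA and the second highest in islet RNA. The other libraries differed less in rank, most of all NF17, at rank 2 in acinar RNA and 5 in islet RNA.

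**Figure D1:**
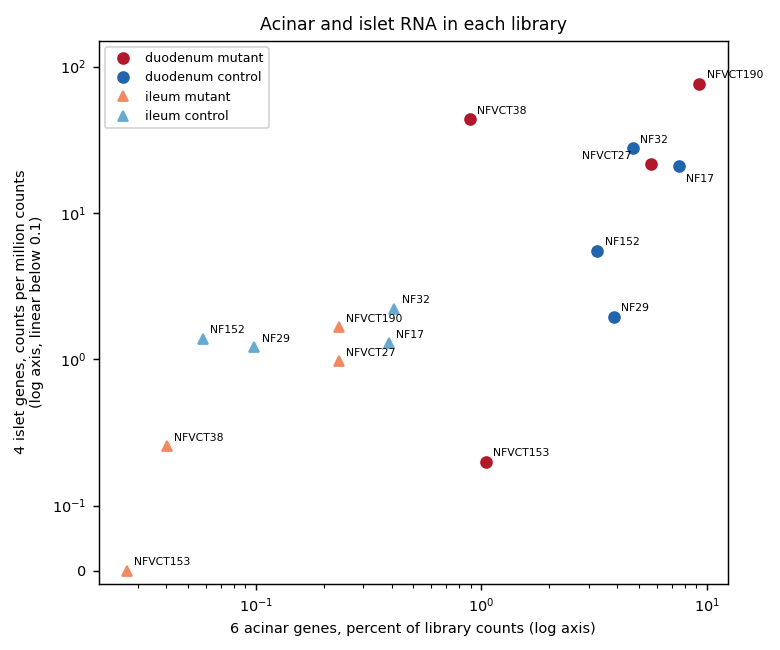
Acinar RNA (percent of library counts, log axis) against islet RNA (parts-per-million of library counts, log axis, linear near 0) in 16 libraries; circles are duodenum, triangles ileum, red shades mutants and blue shades controls. All duodenal libraries lie to the right of all ileal ones, and the duodenum of NFVCT38 and of NFVCT153, alike in acinar RNA at 0.890 and 1.05%, lie far apart in islet RNA.

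Cpa1, which codes for a carboxypeptidase secreted as a zymogen, had 13631, 1645, 2075 and 19531 CPM in the duodenum of mutants NFVCT27, NFVCT38, NFVCT153 and NFVCT190, against 18817, 9856, 10549 and 6946 CPM in controls NF17, NF29, NF32 and NF152. The genotypes overlapped, and the mutants spread over an 11.9-fold range against 2.71-fold in controls. The other zymogens and lipases had the same 2 low mutants. Cela2a, a pancreatic elastase, ran from 1261 to 13954 CPM in mutants and from 5844 to 13252 CPM in controls. Ctrb1, the chymotrypsin precursor, ran from 2322 to 24234 CPM in mutants and from 5558 to 18784 CPM in controls. Pnlip, the triglyceride lipase of pancreatic juice, ran from 2976 to 40807 CPM in mutants and from 11863 to 32211 CPM in controls.

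Clps codes for colipase, the cofactor that anchors Pnlip on fat droplets. Clps had 2992, 490.45, 499 and 4384 CPM in the mutant duodenum (NFVCT27, NFVCT38, NFVCT153 and NFVCT190), against 4579, 2432, 2426 and 1722 CPM in the control duodenum (NF17, NF29, NF32 and NF152). Pla2g1b, the secreted pancreatic phospholipase A2, had 177, 15.3, 14.9 and 300.3 CPM in the same mutants and 252, 107, 132 and 48.0 CPM in the same controls. NFVCT38 and NFVCT153 were the 2 lowest libraries for both genes, and the genotypes overlapped.

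Of the hormone genes, Ins2, the mouse insulin gene shared with other mammals, had 180, 360, 4 and 455 counts in the duodenum of mutants NFVCT27, NFVCT38, NFVCT153 and NFVCT190, against 170, 10, 166 and 33 counts in controls NF17, NF29, NF32 and NF152. Ins1, the rodent retrogene copy of insulin, had 99, 230, 2 and 234 counts in these mutants, against 96, 1, 112 and 41 in these controls. Both insulin genes were lowest in mutant NFVCT153 and control NF29 on the CPM scale. They are close copies, and the authors' counting could have split or dropped reads that match both.

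Iapp, which codes for amylin, the peptide released with insulin by beta cells, had 30, 82, 1 and 47 counts in the mutant duodenum (NFVCT27, NFVCT38, NFVCT153 and NFVCT190), against 26, 8, 28 and 23 in the control duodenum (NF17, NF29, NF32 and NF152). Ppy, the pancreatic polypeptide gene, had 10, 72, 0 and 33 counts in the same mutants, against 10, 5, 8 and 3 in the same controls. For each gene the 2 genotypes overlapped, with NFVCT153 below every control and NFVCT38 and NFVCT190 above every control on the CPM scale. NFVCT27 also exceeded every control for Ppy, at 0.839 CPM against a highest control value of 0.815 CPM.

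**Figure D2:**
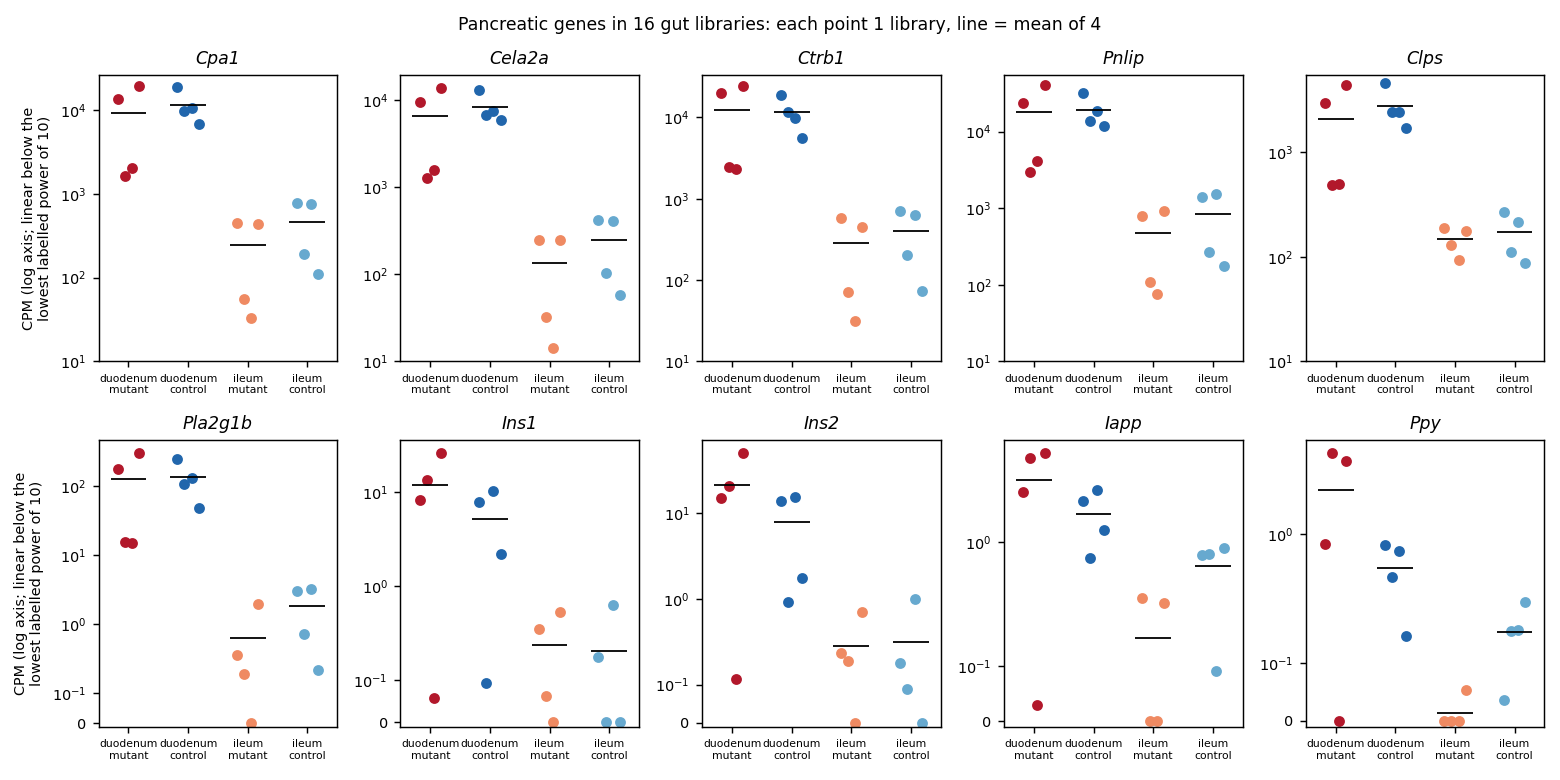
CPM of the 10 pancreatic genes in 16 libraries, 1 panel per gene; each point is a library, the line is the mean of 4, and the vertical axis is logarithmic, turning linear near 0 for low genes. In every panel the duodenal genotypes overlap, and for the 6 acinar genes all duodenal points lie above all ileal points.

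Compared per kilobase of exon, the enzymes had the same order in the duodenum of both genotypes. In mutants the levels were 14043 CPM per kb for Ctrb1, 8179 for Pnlip, 5269 for Cpa1, 3812 for Cela2a, 3423 for Clps and 178 for Pla2g1b. In controls they were 13133 for Ctrb1, 8723 for Pnlip, 6595 for Cpa1, 4835 for Cela2a, 4566 for Clps and 189 for Pla2g1b (CPM per kb). Within single libraries this order held between neighbours in all 8 duodenal libraries, except that Cela2a exceeded Clps in 6 of 8. The hormones lay far below: Ins2 stood at 16.4 CPM per kb in mutants and 6.09 in controls, Ins1 at 11.2 in mutants and 4.83 in controls, Ppy at 4.33 in mutants and 1.09 in controls, and Iapp at 3.21 in mutants and 1.72 in controls. Ins2 exceeded Ins1, and Ins1 exceeded Ppy, in 7 of 8 libraries each, whereas Ppy exceeded Iapp in 3 of 8.

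Whether loss of Neurog3 in the gut epithelium went with a change in these genes was asked within each tissue. In the duodenum none of the 10 passed the test (edgeR's quasi-likelihood F test, Benjamini-Hochberg adjusted p under 0.05 over 14703 genes), where 58 genes did (0.394% of those tested, with 0.0952% called higher and 0.299% called lower in mutants). None of the 10 reached an unadjusted p of 0.05, and DESeq2, which called 310 genes, called none of them either. The acinar genes had log2 fold changes between -0.42 (Clps, SE 0.73) and 0.09 (Ctrb1, SE 0.77). The islet genes had higher fitted values, at 1.18 for Ins1 (SE 1.39), 1.41 for Ins2 (SE 1.41), 0.83 for Iapp (SE 1.01) and 1.96 for Ppy (SE 1.23, adjusted p = 0.776). With 1 library left out these ran from 0.47 to 1.76 for Ins1, 0.57 to 1.94 for Ins2, 0.48 to 1.31 for Iapp and 1.27 to 2.45 for Ppy. The lowest values came without mutant NFVCT190 for the first 3 genes and without mutant NFVCT38 for Ppy.

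These intervals were wide. For Clps the 95% interval of the duodenal log2 fold change ran from -2.11 to 1.26, and for Ppy from -0.90 to 4.83. The groups of libraries did not separate for any of the 10 genes, while 5.80% of genes with a mean of at least 1 CPM had duodenal groups that did not overlap. The spread itself was large: the SD of log2(CPM + 1) within groups was 1.36 for Cpa1 and 2.03 for Ins2, against a median of 0.220 over 14054 genes. All 10 members exceeded at least 97.8% of those genes in duodenal spread.

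In the ileum the 6 acinar genes were tested and none passed, where 490 of 14951 genes did (3.28%, with 1.77% called higher and 1.51% called lower in mutants). Their log2 fold changes, mutant over control, ran from -1.30 for Pla2g1b (SE 1.13, adjusted p = 0.667) to -0.24 for Clps (SE 0.42, adjusted p = 0.863), none with an unadjusted p of 0.05, and DESeq2 called none of them. The 4 islet genes fell under the filter on low counts in this tissue. Libraries of mutants and controls overlapped for all 10 genes, where 10.2% of genes did not overlap.

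**Figure D3:**
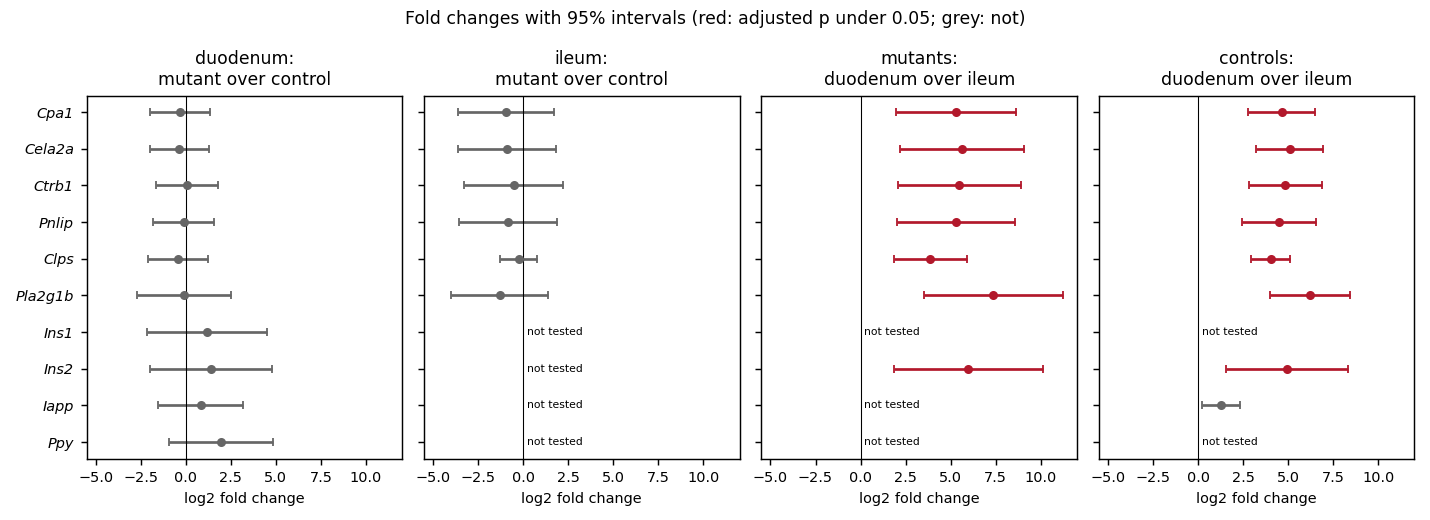
Log2 fold changes of the 10 genes with 95% intervals, for mutant over control in the duodenum and ileum and for duodenum over ileum in mutants and controls; red marks an adjusted p under 0.05, grey one above it. The genotype intervals span 0 throughout, and the 6 acinar genes are red in both tissue panels.

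RNA of the acinar genes was much lower in the ileum but present in all 8 animals. Which cells gave it there was not tested. The acinar genes took 0.234, 0.0404, 0.0269 and 0.233% of counts in the ileum of mutants NFVCT27, NFVCT38, NFVCT153 and NFVCT190, and 0.390, 0.0987, 0.412 and 0.0584% in controls NF17, NF29, NF32 and NF152. NFVCT38 and NFVCT153, the low mutants of the duodenum, were again the 2 lowest libraries. Cpa1 had 446, 55.6, 32.9 and 442 CPM in these mutants and 791, 189, 767 and 109 CPM in these controls.

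All 6 acinar genes were higher in the duodenum than in the ileum, in both genotypes. In mutants 32.3% of the 14950 genes tested passed in either direction and 17.1% were called higher in the duodenum. In controls 35.9% of the 14976 genes tested passed and 18.7% were called higher there. In mutants the log2 difference of the acinar genes ran from 3.86 for Clps (SE 0.86, adjusted p = 0.0136) to 7.37 for Pla2g1b (SE 1.61, adjusted p = 0.0148). In controls it ran from 4.02 for Clps (SE 0.48, adjusted p = 0.000332) to 6.21 for Pla2g1b (SE 0.91). The median over the 6 acinar genes was 5.37 in mutants and 4.73 in controls, beside medians over all genes tested of 0.02 in mutants and -0.01 in controls. For all 6 acinar genes the 4 duodenal and 4 ileal libraries of a genotype did not overlap, as for 33.7% of genes in mutants and 35.4% in controls.

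In the mutants 4 of these genes lost the call, though not the size of the difference, when certain libraries were left out. Without the ileal library of NFVCT38, or the duodenal one of NFVCT27 or NFVCT190, Cpa1, Cela2a, Ctrb1 and Pnlip no longer passed, and Cpa1 and Ctrb1 also failed without the ileal library of NFVCT190 (adjusted p up to 0.0648). The log2 difference over all such fits stayed at 4.60 to 5.74 for Cpa1, 4.95 to 6.10 for Cela2a, 4.91 to 6.09 for Ctrb1 and 4.47 to 5.81 for Pnlip. Clps and Pla2g1b passed in every such fit. With the animal as a block, which pairs the 2 tissues of a mouse, all 6 acinar genes passed in mutants (adjusted p at most 0.00326) and in controls (at most 0.000256).

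Of the islet genes, only Ins2 was tested between the tissues in mutants, and only Ins2 and Iapp in controls. Ins1 and Ppy fell under the count filter in both genotypes, and Iapp did in mutants. Of those tested, Ins2 passed. The filter kept Ins2 mainly through its duodenal counts, so no separate support is drawn from the call. With no count filter Ins2 did not pass (edgeR adjusted p = 0.0743 in mutants and 0.0653 in controls). Ins2 had 2, 3, 0 and 13 ileal counts in mutants NFVCT27, NFVCT38, NFVCT153 and NFVCT190, against 5, 1, 11 and 0 in controls NF17, NF29, NF32 and NF152. Its log2 difference, duodenum over ileum, was 5.98 in mutants (SE 1.73, adjusted p = 0.0391) and 4.95 in controls (SE 1.40, adjusted p = 0.0344). The ranges of the 2 tissues overlapped in both genotypes on the CPM scale. Leaving out a library ended the Ins2 call in 7 of 8 fits in mutants, all but that without the duodenum of NFVCT153 (adjusted p up to 0.10). In controls it ended in 5 of 8, those without either library of NF17, the ileum of NF29 or NF152 or the duodenum of NF32 (adjusted p up to 0.0947). The log2 difference of Ins2 stayed at 5.15 to 7.09 in mutants and 4.41 to 6.27 in controls over these fits.

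With the animal as a block, Ins2 had an adjusted p of 8.53e-07 in mutants and 0.000103 in controls. Ins1 fell under the count filter in both tissue comparisons. Ins1 summed to 565 duodenal and 14 ileal counts in mutants, and to 250 duodenal and 12 ileal counts in controls.

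Iapp had 3, 0, 0 and 6 ileal counts in mutants NFVCT27, NFVCT38, NFVCT153 and NFVCT190, and 22, 9, 1 and 21 in controls NF17, NF29, NF32 and NF152. In controls the log2 difference of Iapp, duodenum over ileum, was 1.27 (SE 0.48, adjusted p = 0.0558), short of the threshold. It passed with no count filter (adjusted p = 0.0106), with DESeq2 (0.0318) and without the duodenum of NF29 (0.0290). Iapp was at 108% of its duodenal level in the ileum of NF29 and at 71.9% in that of NF152, animals whose ileal Ins2 counts were 1 and 0.

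Ppy had 0, 0, 0 and 1 ileal counts in the same mutants and 1, 2, 2 and 7 in the same controls. Summed over 4 libraries and taken per TMM-scaled library size, ileal Ppy in mutants was 0.118 times that in controls (exact binomial 95% interval 0.00276 to 0.797). For Iapp, with 9 against 53 summed ileal counts, the ratio was 0.240 (interval 0.104 to 0.492). For Ins2, with 18 against 17, it was 1.5 (0.729 to 3.09). These intervals cover counting error only and do not carry the spread between animals. With no count filter, ileal Iapp had a log2 fold change, mutant over control, of -1.95 (SE 0.64, edgeR adjusted p = 0.0602), and Ppy an adjusted p of 0.375. Which cells gave the ileal Iapp and Ppy counts, islet or gut, was not tested.

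The genotype difference was not shown to depend on the tissue for any of the 10 genes. The interaction called 7 of 15882 genes (0.0441%, with 0.0063% positive and 0.0378% negative), and 16 with the animal as a block; none of the 10 was among either, and none had an unadjusted p under 0.05 without the block. The smallest unadjusted p of the members were 0.0569 for Ppy and 0.0896 for Iapp, whose genotype difference was 2.79 greater on the log2 scale in duodenum than in ileum (SE 1.53, edgeR adjusted p = 1.0). With the animal as a block the unadjusted p was 0.00323 for Ppy and 0.00949 for Iapp, and the edgeR adjusted p was 0.433 for Ppy and 0.647 for Iapp.

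The acinar genes kept close proportions to each other in the duodenum. Cela2a lay between 0.688 and 0.841 times the Cpa1 count in all 8 duodenal libraries, a 1.22-fold range, and Clps between 0.220 and 0.298 times. The widest range among acinar genes was 2.22-fold, for Pla2g1b. Islet genes had no such fixed proportion to this acinar gene. The ratio of Ins2 to Cpa1 counts ran from 6.28e-05 in NFVCT153 (4 Ins2 counts) to 0.0128 in NFVCT38, a 203-fold range. That of Ins1 ran over a 574-fold range, with 1 Ins1 count in NF29. To each other the insulin genes kept closer proportions where islet counts were highest, in NFVCT27, NFVCT38, NFVCT190, NF17 and NF32. There Ins2 took 48.4 to 59.2% and Ins1 30.4 to 35.7% of the islet counts. Within the islet group, insulin genes made up most of the counts in each duodenal library but NF29, which held 24 islet counts in all.

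Between genotypes, 9 ratios to Cpa1 were compared in the duodenum, and none passed an exact permutation test. The closest were Ctrb1, at 1.12 to 1.5 times Cpa1 in mutants and 0.800 to 1.20 times in controls, and Pnlip, at 1.75 to 2.09 times in mutants and 1.38 to 1.79 times in controls. Each had a two-sided exact p of 0.0571 (adjusted 0.257), where 4 against 4 libraries allow no p below 0.0286. As shares of the summed acinar counts, Cpa1 took 18.6 to 19.6% in the mutant duodenum and 21.3 to 22.1% in the control duodenum, and Cela2a 13.5 to 14.8% in mutants and 15.1 to 18.3% in controls. Neither share overlapped between the genotypes, and those of the other 4 acinar genes did. Shares of the same sum depend on each other, so lower shares of some genes go with higher shares of others. The ratio of Cela2a to Cpa1 showed no such separation (mean log2 difference, mutant minus control, 0.00039, two-sided exact p = 0.971). The shares were not tested and have no background beside them, so no genotype difference is drawn from them. This comparison, and those below with the ileum of the same animal, were chosen after the data had been seen.

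**Figure D4:**
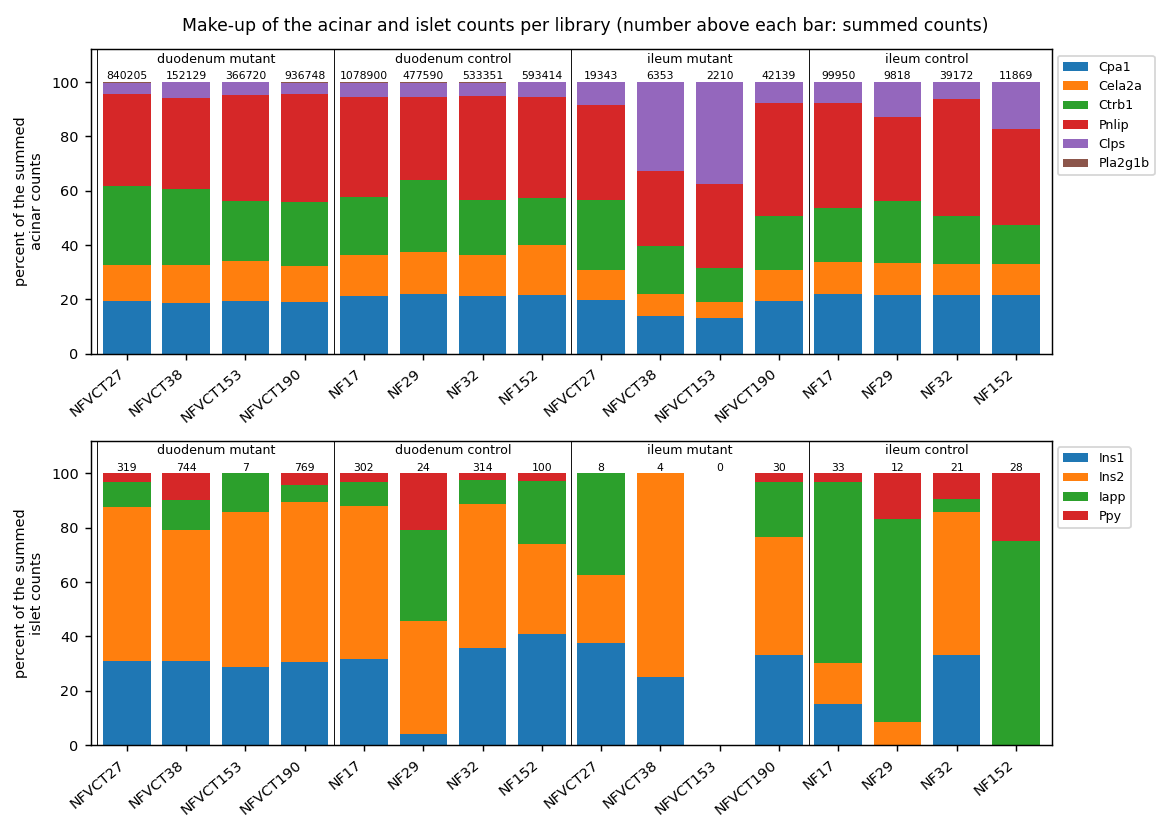
Make-up of the summed acinar counts (upper panel) and islet counts (lower panel) of each library in percent, with the number of counts above each bar; duodenum comes before ileum and mutants before controls. Acinar bars are alike across the duodenum, while Clps takes 37.6% in the ileum of NFVCT153; islet bars rest on 0 to 33 counts in the ileum.

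The proportions differed between the tissues of the same animal. Clps made up 4.96 ± 0.52% of the acinar counts in the 8 duodenal libraries and 16.3 ± 12.3% in the 8 ileal ones (SD). It had 189.7, 131, 93.2 and 175 CPM in the ileum of mutants NFVCT27, NFVCT38, NFVCT153 and NFVCT190, and 271, 112, 216 and 87.8 CPM in controls NF17, NF29, NF32 and NF152. So Clps spanned a 2.04-fold range over the mutant ileum, where Cpa1 spanned 13.6-fold. The highest Clps shares, 32.8% and 37.6%, were in NFVCT38 and NFVCT153, the ileal libraries with the least acinar RNA. The source of the ileal Clps counts was not tested.

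Relative to Cpa1, Clps was lower in the duodenum than in the ileum of all 8 animals, by a mean log2 difference of -1.51 (SD 1.18, range -3.56 to -0.29). Pla2g1b went the other way in all 8 animals, with a mean of 1.92 (SD 0.81), although it had only 3, 3, 0 and 37 ileal counts in mutants NFVCT27, NFVCT38, NFVCT153 and NFVCT190 and 85, 8, 36 and 5 in controls NF17, NF29, NF32 and NF152. Cela2a and Ctrb1 were also higher relative to Cpa1 in the duodenum of all 8 animals, by 0.47 (SD 0.18) and 0.22 (SD 0.05). Each of the 4 had a two-sided exact permutation p of 0.00781, the smallest 8 animals can give (adjusted 0.00977 over 5 genes). Pnlip did not pass (mean -0.07, SD 0.09, exact p = 0.102).

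**Figure D5:**
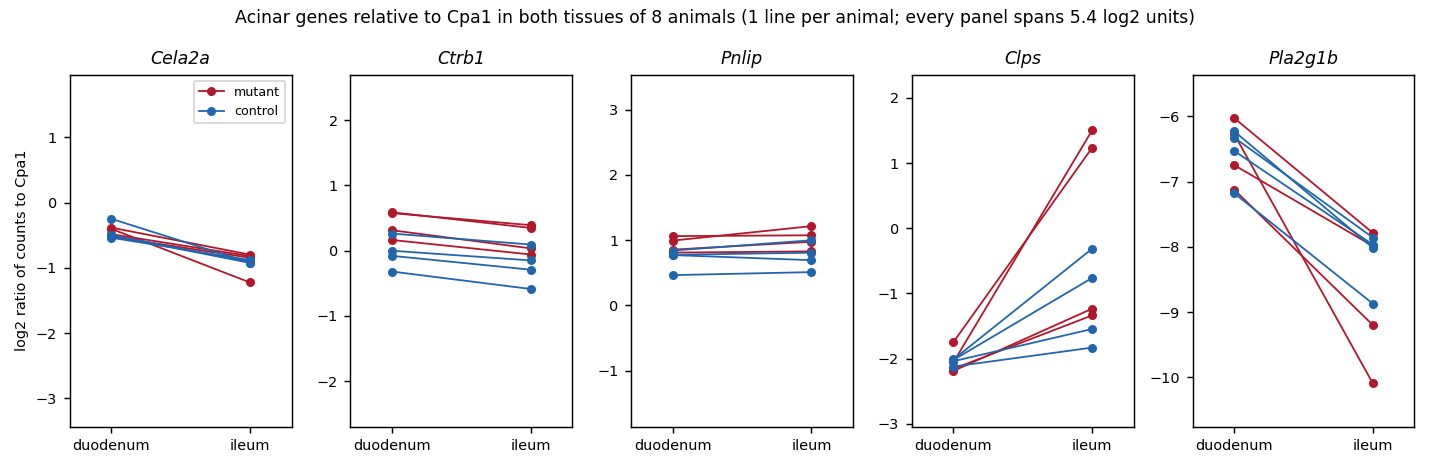
Log2 ratio of the counts of 5 acinar genes to Cpa1 in the duodenum and ileum of 8 animals (red mutants, blue controls; 1 line per animal). The ratio of Clps is lower in the duodenum of every animal and that of Pla2g1b higher, while Pnlip stays near level.

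Animals with more acinar RNA in the duodenum also had more in the ileum. For Cpa1 the Pearson r of log2(CPM + 1) between the tissues was 0.905 over 8 animals (exact permutation adjusted p = 0.00588 over 6 genes), and Spearman's rho was 0.810 (adjusted p = 0.0419). The lowest r was that of Clps, at 0.650 (adjusted p = 0.0900, rho 0.643). Without NFVCT38 and NFVCT153, the animals farthest from the median, r for Cpa1 was 0.732 (exact p = 0.108) and that for Clps was 0.759 (exact p = 0.0917). Over the 6 acinar genes r lay between 0.614 and 0.772 in those 6 animals, and none passed. As a share of the duodenal level of the same animal, ileal Cpa1 had a median of 2.77% (1.57 to 7.27%), ileal Clps one of 6.13% (3.99 to 26.7%) and ileal Pla2g1b one of 0.663%.

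No relation between acinar and islet RNA passed over the 8 duodenal libraries. Cpa1 gave Pearson r of 0.35 with Ins1, 0.41 with Ins2, 0.29 with Iapp and 0.00505 with Ppy, with exact permutation p adjusted over 4 relations of 0.652 to 0.993. Spearman's rho was 0.381 for the first 3 genes and 0.310 for Ppy (adjusted p = 0.462). A single library weighed heavily here: without NFVCT38, r was 0.77 for Ins1, 0.83 for Ins2 and 0.87 for Iapp (exact permutation adjusted p 0.0413, 0.0242 and 0.0242). Without both NFVCT38 and NFVCT153, the 2 libraries farthest from the median of Cpa1, r was 0.69, 0.80, 0.71 and 0.78 for Ins1, Ins2, Iapp and Ppy (n = 6, exact p 0.135, 0.0569, 0.110 and 0.0333). The duodenum of NFVCT38 held 204 acinar counts for each islet count, against 1218 to 52389 in the other 7.

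Among 13101 genes, those closest to the mean of the 6 acinar genes over the 8 duodenal libraries included Cpb1, Aqp12, Ctrl, Cela1, Cel, Rnase1 and Pdia2 (Pearson r 0.995 to 0.998). Most are pancreatic secretory enzymes, and Aqp12 is a water channel of acinar cells. The genes closest to the mean of the 4 islet genes were Zswim3, Hmga1, Mlxip, Edn2, Abl2, Slc38a2, Eea1 and Cnnm3 (r 0.944 to 0.981), none of them an islet hormone. With 8 libraries and this many genes, such r values are a ranking only.

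Other acinar genes were also higher in the duodenum. Of 20 further digestive enzymes and inhibitors, 17 were tested between the tissues in mutants, with 15 higher in the duodenum and 0 lower, and 18 in controls, with 16 higher and 0 lower. Over all genes tested, 17.1% were higher in the mutant duodenum and 18.7% in the control duodenum. The median log2 difference of these enzymes and inhibitors was 5.20 in mutants and 4.47 in controls. Cel, the bile salt-stimulated lipase, averaged 13491 ± 13032 CPM in the mutant duodenum and 376 ± 365 CPM in the mutant ileum, and 14098 ± 6238 CPM in the control duodenum and 599 ± 488 CPM in the control ileum. The same direction was called for Cpb1, Prss2 and Cela1, a carboxypeptidase, a trypsinogen and an elastase. Trypsinogens and amylases are families of near copies, so single members are uncertain. By genotype, 0 of 18 tested passed in the duodenum and 0 of 14 in the ileum, where Pnliprp2, a lipase relative, had 456 ± 129 CPM in mutants and 190 ± 65 CPM in controls (edgeR adjusted p = 0.0994). That was the 1 gene of the list with an unadjusted p under 0.05 in the ileum, and 0 had one in the duodenum.

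Of 12 genes for acinar granule proteins and transcription factors, 8 of 11 tested were higher in the mutant duodenum than ileum, with 0 lower, and 9 of 12 in controls, with 1 lower (Nr5a2). The shares over all genes were again 17.1% higher in mutants and 18.7% in controls. Reg1 averaged 5218 ± 1917 CPM in the mutant duodenum and 154 ± 78 CPM in the mutant ileum. It spread less between mutant duodenal libraries than Cpa1, at 9220 ± 8836 CPM. Sycn, a zymogen granule protein, averaged 2036 ± 1938 CPM in the mutant duodenum and 49.1 ± 46.4 CPM in the mutant ileum. Zg16 did not pass in either genotype, at 3898 ± 1354 CPM in the mutant duodenum and 3609 ± 751 CPM in the mutant ileum. Gata4 was called higher in the duodenum in both genotypes. It averaged 150 ± 15 CPM in the mutant duodenum and 16.6 ± 3.0 CPM in the mutant ileum, and also spread less than Cpa1. How much of this list came from the gut itself was not tested, so the tally is not read as acinar RNA alone. Reg2, a secreted lectin related to Reg1, had 3015, 524, 448 and 4994 CPM in the duodenum of mutants NFVCT27, NFVCT38, NFVCT153 and NFVCT190, against 192, 18.4, 281 and 2.21 CPM in controls NF17, NF29, NF32 and NF152. Every mutant lay above every control for Reg2, where the duodenal groups of 5.8% of genes with a mean of at least 1 CPM did not overlap. Reg2 did not pass (log2 fold change 4.18, SE 1.62, edgeR adjusted p = 0.522). By genotype 0 of 12 genes of this list passed in the duodenum, with 1 at an unadjusted p under 0.05, and 0 of 10 in the ileum, with 0 at that p.

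The islet list was mostly too low to test or is also made by the gut. Of 17 other islet genes, 9 were tested between tissues; 4 were higher in the duodenum in each genotype, and 2 were lower in mutants and 1 in controls. Over all genes tested, 17.1% were higher and 15.2% lower in the mutant duodenum, and 18.7% higher and 17.1% lower in the control duodenum. Among them Pdx1, a transcription factor of both beta cells and the proximal gut, averaged 48.2 ± 11.1 CPM in the mutant duodenum and 1.02 ± 0.28 CPM in the mutant ileum. Slc2a2, the glucose transporter of beta cells and enterocytes, was the 1 gene of this list called by genotype, with 514 ± 106 CPM in the mutant ileum and 199 ± 55 CPM in the control ileum (log2 fold change 1.35, SE 0.23, adjusted p = 0.0132). Over all genes tested, 1.77% were called higher in the mutant ileum. G6pc2, a beta cell enzyme named here after its values were seen, had 9, 14, 0 and 29 duodenal counts in mutants NFVCT27, NFVCT38, NFVCT153 and NFVCT190, against 3, 0, 7 and 4 in controls NF17, NF29, NF32 and NF152. Low genes of this list went both ways in duodenal mean CPM. Slc30a8 (0.288 in mutants, 0.0868 in controls) and Ppp1r1a (1.07 and 0.711) were higher in mutants. Ucn3 (0.113 in mutants, 0.831 in controls), Abcc8 (0.608 and 1.33) and Kcnj11 (0.280 and 0.492) were lower.

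Among peptide genes shared by islets and gut endocrine cells, some were lower in mutants. Of 10 tested, 2 were lower in the mutant duodenum (Chgb and Sst) and 5 in the mutant ileum (Chgb, Gcg, Chga, Pyy and Sst), with 0 higher in either. Over all genes tested, 0.299% were lower in the mutant duodenum and 1.51% in the mutant ileum. Chgb, a granule protein, averaged 2.21 ± 1.15 CPM in the mutant duodenum against 230.5 ± 42.0 CPM in controls (log2 fold change -6.67, SE 0.32, adjusted p = 5.09e-06). In the ileum Chgb averaged 1.71 ± 0.41 CPM in mutants and 105 ± 22 CPM in controls.

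Markers of other tissues were examined beside the tissue difference. Stomach genes summed to 2.10 to 6.16 CPM in the mutant duodenum, 2.22 to 7.66 CPM in the control duodenum and at most 4.53 CPM in an ileal library. Atp4b, a gastric parietal cell gene, was at 0 in 3 of 4 groups, and Pgc, the gastric pepsinogen gene and the 1 gene of this list tested, was higher in the duodenum in mutants (edgeR adjusted p = 0.00282) and did not pass in controls (0.218). Hepatocyte genes summed to at most 20.5 CPM in any library. Of 4 Brunner gland genes, Muc6 was not found by symbol and Bpifb1 had 0 counts. The other 2, Tff2 and Dmbt1, were higher in the duodenum in each genotype. For Tff2 the log2 difference, duodenum over ileum, was 5.11 (SE 1.25) in mutants and 4.60 (SE 0.72) in controls. That was near Cpa1, at 5.28 (SE 1.40) in mutants and 4.63 (SE 0.79) in controls. For Dmbt1 it was 1.64 (SE 0.31) in mutants and 1.56 (SE 0.39) in controls. Smooth muscle genes were lower in the duodenum, 5 of 6 in mutants and 6 of 6 in controls. Of 5 tested adipocyte genes, 2 were lower in the mutant duodenum than ileum and 4 in controls, with 0 higher in mutants and 1 in controls. Of 6 pancreatic duct genes, 1 was higher and 1 lower in the mutant duodenum, and 2 were higher and 1 lower in controls, where 32.3% of all genes were called in mutants and 35.9% in controls. In the ileum by genotype, 4 of 6 smooth muscle genes were higher in mutants, against 1.77% of all genes tested. The part of these tissues in the acinar and islet values was not tested.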

How the data were processed

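Stranded total RNA, after removal of ribosomal RNA and PCR amplification, was sequenced from duodenum and ileum, per the labels' protocols. STAR 2.5.3a, HTSeq 0.6.1p1 and build mm39 are listed, without role or order, in the submitters' processing notes, as are bcl2fastq, cutadapt and Bowtie2. The authors deposited whole-number counts per gene for 16 libraries in 1 table of 55359 genes. Gene IDs were matched to symbols for 52083 of them (98.3% of counts).

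Counts were tested over the whole table with edgeR 4.0.16 in R 4.3.3 (TMM scaling, filterByExpr, robust quasi-likelihood F test, Benjamini-Hochberg adjusted p under 0.05), in separate fits for genotype within a tissue and tissue within a genotype, each over 8 libraries, and 1 fit over 16 libraries for the interaction. DESeq2 1.42.0, other scalings, no count filter, the animal as a block and each library left out were the alternatives. Correlations used log2(CPM + 1), and count ratios to Cpa1 added 0.5 counts, with exact permutation tests (SciPy 1.17.1). The scripts were tested on simulated data. Levels per kilobase used GENCODE exon lengths. Promoters came from RefSeq (GRCm38.p6), another build than that of the files, and only their own coordinates are given.

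The same animal gave both tissues, so replicate numbers pair the libraries: deviations from the group means correlated at 0.117 to 0.378 within each animal. In NFVCT190 the highest correlation with another animal's ileum, 0.253, exceeded its own, 0.162.

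The members and the gene lists were chosen with earlier results of these data known. Named genes are the 10 members, up to 4 genes of highest mean CPM from each list and the 8 closest genes by correlation for each group, of which 1 is not reported here. Other genes named from the lists were chosen after their values were seen. Amplified reads can be copies of one molecule, so intervals on count ratios are for counting error alone.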

Additional observations from a re-analysis of the deposited data

Results flagged for a closer look

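Of 48 groups of 4 libraries examined for the 10 pancreatic genes and the summed acinar and islet shares, 2 held a library that stood apart from the other 3 by Dixon's test. Chance flags about 1 in 20 groups. Iapp was at 0.0907 CPM in the control ileum of NF32, against 0.788 to 0.891 CPM in the other 3 control ileal libraries. Ppy was at 0.0535 CPM in the mutant ileum of NFVCT190, which is 1 count, and at 0 in the other 3 mutant ileal libraries.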

How the results depend on the processing

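Of 652 values of the 10 genes under other settings of the analysis, 594 kept direction and side of the threshold, 33 lost their call, 3 gained one and 22 changed sign, none of these called. The duodenal genotype test called 58 genes, and 169 with no filter, 310 with DESeq2, 151 in one fit over 16 libraries and 27 to 61 with a library left out. The ileal one called 490, and 1096 with no filter, 875 with DESeq2 and 272 to 472 with a library left out. The interaction called 7, and 3 with total counts, 15 with no filter, 38 with DESeq2, 16 with the animal as a replicate block and 3 to 13 with a library left out. The causes were not tested. The block changed no call of the 10 genes.

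Leaving out 1 library turned the sign in the duodenal genotype comparison of Cpa1 (log2 fold change -1.01 to 0.0169), Ctrb1 (-0.48 to 0.44), Pnlip (-0.90 to 0.27) and Pla2g1b (-0.99 to 0.40), and in the ileal one of Clps (-0.47 to 0.0562). It did so in the interaction of Cpa1 (-0.0333 to 1.07), Cela2a (-0.13 to 0.99), Pnlip (-0.0343 to 1.27), Clps (-0.82 to 0.16), Ins1 (-0.47 to 1.63) and Ins2 (-0.31 to 2.10). The r of Cpa1 ran from 0.0374 to 0.766 with Ins1, 0.110 to 0.831 with Ins2, -0.185 to 0.873 with Iapp and -0.344 to 0.755 with Ppy, where total counts gave -0.0494.

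With no filter, Ins2 lost its tissue call in mutants (edgeR adjusted p = 0.0743) and controls (0.0653), as did Cpa1 (0.0582), Cela2a (0.0510), Ctrb1 (0.0563) and Pnlip (0.0572) in mutants; total counts ended that of Ins2 in mutants (0.0501). Total counts shifted the median log2 value of all genes by -0.10 for the ileal genotype, -0.19 for the mutant tissue, -0.29 for the control tissue and 0.12 for the interaction. The calls then split into 162 higher and 378 lower, 1340 and 3285, 1394 and 5278, and 1 and 2, against 264 and 226, 2559 and 2274, 2804 and 2568, and 1 and 6 with TMM. Ileal islet counts, 0 to 33 per library, limit what could be detected there.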
